A study of Mus musculus with 2 samples.

Results

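Shh, Ptch1, Smo, Gli1, Gli2, Gli3 and Hhip, the ligand, receptor, transducer, transcription factors and feedback inhibitor of the Hedgehog pathway, were followed through the cells of mouse dorsal skin. The genes were taken by name, and all 7 were found among the 32285 genes of the count tables, of which 26243 had at least 1 unique molecular identifier (UMI, a counted RNA molecule) in the cells kept. In the RefSeq annotation of GRCm38.p6, the patch of the mm10 build, Shh (ENSMUSG00000002633) spans chr5:28456840-28467101 and Ptch1 (ENSMUSG00000021466) spans chr13:63508328-63573460. Smo (ENSMUSG00000001761) lies at chr6:29735497-29761366 and Hhip (ENSMUSG00000064325) at chr8:79965850-80058060. The GLI genes lie at chr10:127329882-127341579 for Gli1 (ENSMUSG00000025407), chr1:118834061-119054405 for Gli2 (ENSMUSG00000048402) and chr13:15463723-15730026 for Gli3 (ENSMUSG00000021318).

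Whole dorsal skin of male C3H/HeN mice under 2 treatments was taken at 9 weeks of age and sequenced as single-cell RNA libraries. The Con library came from control mice given vehicle, and the TP library came from mice given testosterone propionate, an androgen ester, at 0.5 mg per day under the skin from 7 weeks of age as a model of androgenetic alopecia. Each library held the pooled skin of 15 mice, so each treatment was 1 library, cells were not replicates, and no difference below carries a test. Intervals are exact 95% intervals that cover counting error only, not the spread between mice. Skin of TP mice that also received a CXCL12 antibody was not analysed here.

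Sonic hedgehog is a secreted signal. It binds Patched, which in the absence of ligand holds the membrane protein Smoothened inactive; freed Smoothened acts through the primary cilium on the GLI transcription factors, of which Gli1 is itself a target and a common readout of the pathway, while Gli2 is a main activator and Gli3 is processed largely into a repressor. Ptch1 and Hhip, a membrane protein that binds the ligand, are targets that damp the signal in turn. In the hair follicle the matrix and its precursors produce Shh, and the epithelium and the dermal papilla, the mesenchymal signalling centre at the follicle base, respond to it. The pathway is needed for follicle growth in development and in the growth phase of the hair cycle.

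Because Ptch1 and Hhip are both targets and regulators of the signal, the sequences just before their RefSeq starts were read for the letters of the GLI site, together with Gli2, the only member window that held them. Each line gives 250 bases, 5′ to 3′ on the gene's strand, from RefSeq on GRCm38.p6, and capitals mark the searched letters ACCACCC or, on the other strand, GGGTGGT.
Ptch1, minus strand, chr13:63565736-63565985: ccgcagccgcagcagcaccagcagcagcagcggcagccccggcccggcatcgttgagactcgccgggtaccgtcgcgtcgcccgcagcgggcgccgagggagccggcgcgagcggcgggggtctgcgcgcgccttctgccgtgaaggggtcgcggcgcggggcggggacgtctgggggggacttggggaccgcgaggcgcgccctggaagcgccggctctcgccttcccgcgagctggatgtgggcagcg
Hhip, minus strand, chr8:80058009-80058258: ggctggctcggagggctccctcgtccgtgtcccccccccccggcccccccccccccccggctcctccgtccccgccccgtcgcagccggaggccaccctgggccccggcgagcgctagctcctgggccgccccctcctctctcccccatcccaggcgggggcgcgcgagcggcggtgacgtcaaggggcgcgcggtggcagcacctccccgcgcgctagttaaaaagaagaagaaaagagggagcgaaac
Gli2, minus strand, chr1:119053620-119053869: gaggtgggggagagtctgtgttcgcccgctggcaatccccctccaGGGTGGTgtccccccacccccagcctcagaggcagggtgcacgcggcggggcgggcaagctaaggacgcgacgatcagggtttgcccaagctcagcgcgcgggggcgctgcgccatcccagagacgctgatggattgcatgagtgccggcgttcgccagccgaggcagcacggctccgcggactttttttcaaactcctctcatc
The starts that the table gives for Ptch1, Gli2 and Hhip all lie inside the spans of these genes. A window was found for 5 of the 7 genes, all but Shh and Gli1. The core letters stood in 1 of those 5 windows and in 1289 of 32851 windows of all genes (3.92%). The longer form GACCACCCA, which contains the core, or its reverse TGGGTGGTC, stood in 0 of 5 and in 74 of all windows (0.225%). A match is a description of the letters and not a binding site.

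After filtering, 39076 Con cells with 108305832 UMIs and 18542 TP cells with 138196928 UMIs were kept, with a median of 2061 and 5022 UMIs per cell. Barcodes over the mitochondrial limit made up 7.58% of the deposited Con barcodes and 22.6% of the deposited TP barcodes. Before filtering, 303 cell barcodes occurred in both libraries. The cells fell into 32 clusters. By markers, 23 clusters were given 15 class names, written with "-like", and 9 clusters kept only a number, which gave 24 units. The libraries were aligned to each other before clustering, and the 7 genes and the wider Hedgehog list were left out of both steps. Unnamed clusters held 40.5% of Con cells and 30.5% of TP cells. Keratinocyte, fibroblast, endothelial and myeloid markers all led clusters, as the label whole skin names. No cluster was named sebaceous-like, Schwann-like, lymphocyte-like or smooth muscle and pericyte-like. Unnamed cluster 26 still scored highest for the lymphocyte list (4.88, second list 2.79, 9 markers detected). Unnamed cluster 29, led by Myh11, Tagln and Acta2, did so for the smooth muscle and pericyte list (3.60, second list 2.48, 7 markers detected). Both passed the limits of score, margin and markers, and stayed unnamed by a rule on leading genes given with the processing. Hair matrix-like cells, named by markers of the cells that build the hair, made up 9.27% of Con and 2.89% of TP cells. Clusters 6 and 8, led by histone and cell division genes, were unnamed and not part of this class. Dermal papilla-like cells made up 9.52% and 6.73%, and outer bulge and outer root sheath-like cells, the outer layer of the follicle with its stem cells, 1.61% and 8.68%.

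The 7 genes marked different compartments. Shh was highest in hair matrix-like cells, Ptch1 and Hhip in dermal papilla-like cells, Gli3 in companion layer and medulla-like cells, and Smo and Gli2 in cluster 13. Gli1 was highest in cluster 13 in Con, and in TP cluster 13 and the dermal papilla-like class overlapped. Cluster 13 was an unnamed epithelial cluster led by Ntn1, Tmtc1, Sox5, Eda, Edar and Lgr5 and made up 5.01% of Con and 1.95% of TP cells. Levels are given as UMIs of the gene per 1000000 UMIs of the cells concerned (CPM). The reads come from the 3′ ends of transcripts, so that levels are compared between cells for 1 gene and not between genes.

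**Figure D1:**
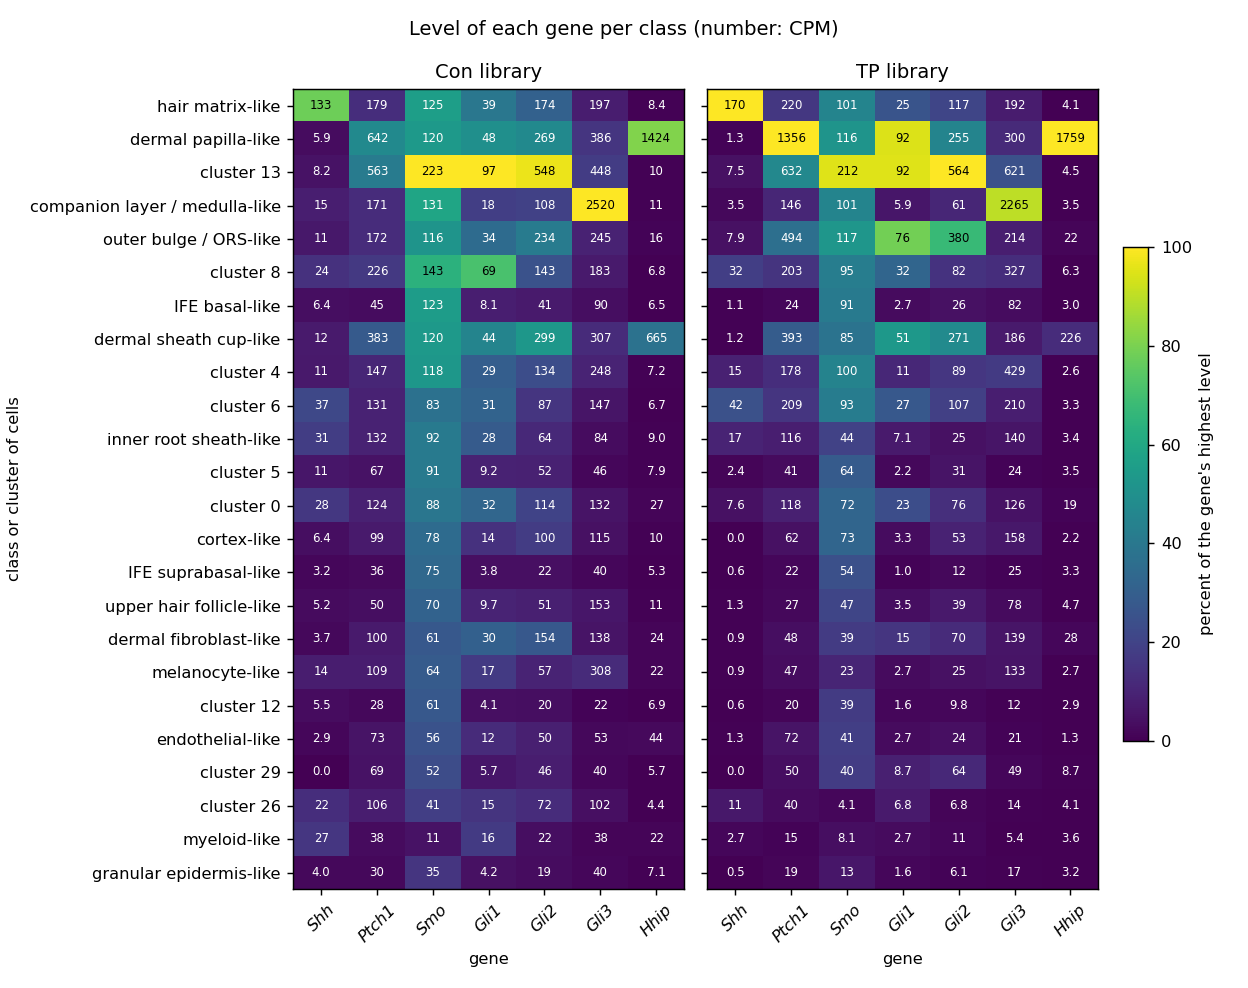
Level of the 7 genes in each class or numbered cluster of the Con (left) and TP (right) library: the number in a box is the level in CPM and the colour is the percent of the gene's highest level over both panels. Shh peaks in hair matrix-like cells (133 and 170 CPM), Hhip in dermal papilla-like cells (1424 and 1759 CPM) and Gli3 in companion layer and medulla-like cells (2520 and 2265 CPM).

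Over all kept cells, every member had a lower level in TP than in Con. Shh was at 25.4 CPM in Con (24.5 to 26.4, 2752 UMIs) and at 10.2 CPM in TP (9.71 to 10.8, 1414 UMIs), a TP/Con ratio of 0.403 (0.377 to 0.430). Shh was the only 1 of the 7 past a 2-fold difference, and 0 members were 2-fold higher. Among all 17590 genes with at least 50 UMIs, 10.5% were at least 2-fold lower and 8.13% at least 2-fold higher. Gli1 stood at 29.6 CPM in Con and 17.6 CPM in TP, a ratio of 0.595 (0.565 to 0.628). Smo went from 103 to 62.2 CPM (0.605), Gli2 from 122 to 77.6 (0.638) and Gli3 from 241 to 151 (0.627). The feedback inhibitor Hhip was closer in the libraries, at 157 and 112 CPM (0.714), and Ptch1 closest, at 187 and 178 CPM, with a ratio of 0.953 (0.936 to 0.971). The median ratio of the 7 genes was 0.63, beside 0.85 for all genes tested.

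These sums mix how many cells of each kind a library held with the level in those cells. When the TP clusters were weighted by their share of UMIs in Con, the ratio of Shh became 1.01, that of Ptch1 1.52, of Hhip 1.31 and of Gli3 1.10, while Smo (0.773), Gli1 (0.795) and Gli2 (0.872) stayed below 1. When instead the Con clusters were weighted as in TP, an alternative chosen after seeing the data, Shh was at 0.790, Smo at 0.764, Gli2 at 0.970 and Gli3 at 0.911, and Ptch1 (1.67), Hhip (1.21) and Gli1 (1.02) were above 1. Scaling by trimmed mean of M values (TMM), which divides every ratio by the same TP/Con factor of 0.849, placed Ptch1 at 1.12 and left the other 6 below 1, with Shh at 0.475. With that scaling 1933 genes were 2-fold higher and 1085 lower in TP, beside 1430 and 1839 without it. Ptch1 was thus above 1 under each of these 3 choices and Hhip under both weightings, whereas Shh and Gli3 turned with the Con weights only and Gli1 with the TP weights only.

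**Figure D2:**
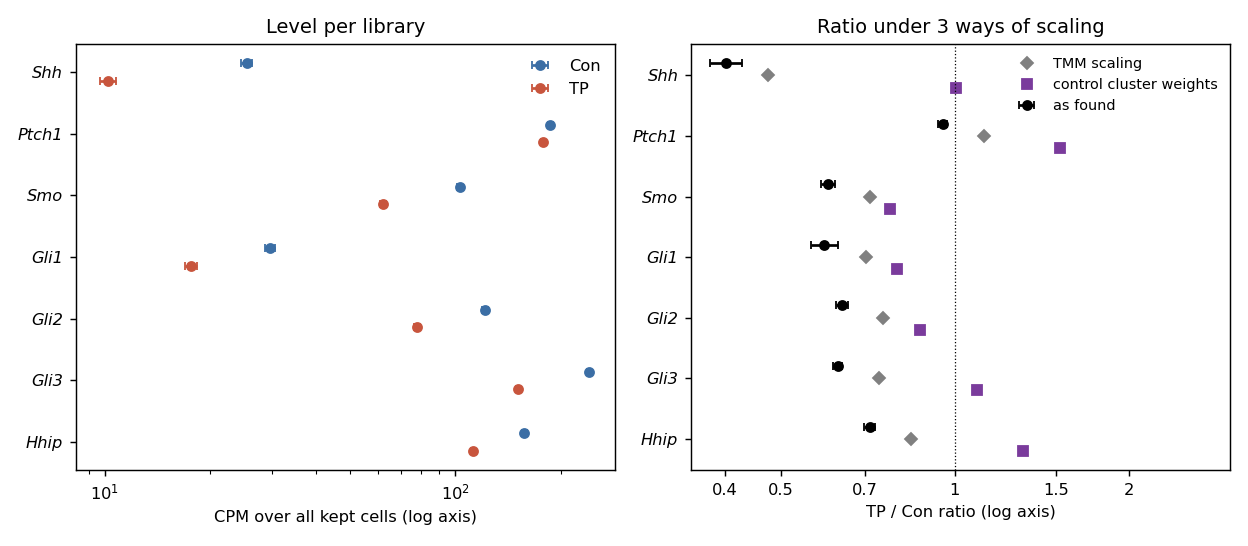
Left, level of each gene over all kept cells in CPM on a log axis, with exact 95% Poisson intervals, for the Con and TP library. Right, the TP/Con ratio on a log axis as found (black, with 95% interval), after TMM scaling (grey diamonds) and with the TP clusters weighted as in Con (purple squares): all 7 ratios are below 1 as found, and those of Shh (1.01), Ptch1 (1.52), Gli3 (1.10) and Hhip (1.31) are above 1 with Con weights.

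Shh, the ligand, was concentrated in the hair matrix-like class. Its level there was 133 CPM in Con (125 to 141, 1086 UMIs) and 170 CPM in TP (155 to 187, 459 UMIs), a ratio of 1.28 (1.15 to 1.43), higher in TP. The class held 39.5% of the Shh UMIs of Con and 32.5% of those of TP. Within the class nearly all of the Shh lay in cluster 3, at 177 CPM in Con and 253 CPM in TP (ratio 1.43, 1.28 to 1.60). The other hair matrix-like cluster, cluster 19, was at 5.64 CPM in Con (12 UMIs) and 3.35 CPM in TP (3 UMIs). Thus the library sum of Shh was lower in TP, whereas the level within hair matrix-like cells was higher, and these cells made up less of the TP library.

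The share of hair matrix-like cells with a Shh UMI was also read after every cell had been thinned to 1000 UMIs, since the TP cells had more UMIs each. It was 8.94% in Con (7.98 to 9.97) and 12.4% in TP (9.68 to 15.6), intervals that overlap, with 368 and 29 shallower cells left out. Without thinning the shares were 14.7% and 25.8%, at median depths of 1880 and 3661 UMIs. In the immune clusters, which should lack Shh, the thinned share was 2.58% in Con and 0.25% in TP (3.55% and 1.38% unthinned, medians 1558.5 and 3916 UMIs), so that background Shh was more frequent in Con. Among granular epidermis-like cells, whose medians were 6651.5 and 15004 UMIs, the thinned share was 0% in both, of 614 Con and 1428 TP cells.

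The next unit in both libraries was cluster 6, an unnamed cluster led by histone genes. Of all marker lists the hair matrix list scored highest in cluster 6, at 0.987, which was short of the limit for a name. Its Shh level was 37.2 CPM in Con (33.5 to 41.2) and 42.2 CPM in TP (38.6 to 46.0), and the interval of the ratio, 1.13 (0.99 to 1.30), held 1. Cluster 6 held 13.5% of the Con and 36.0% of the TP Shh UMIs. Inner root sheath-like cells, which form the sheath that guides the growing hair, were lower in TP, at 30.8 CPM in Con (28.4 to 33.4) and 16.8 CPM in TP (14.5 to 19.3). The immune clusters were at 23.2 CPM in Con (14.2 to 35.8), which overlaps with that class, and at 5.98 CPM in TP. Cluster 2 of that class had 62.4 CPM in Con (57.0 to 68.3) and 33.9 CPM in TP (27.2 to 41.8). In Con the intervals of cluster 6 and inner root sheath-like cells lay just apart, and those of the units below them overlapped. In TP the interval of cluster 6 overlapped with that of cluster 8, at 31.6 CPM (22.5 to 43.0). In dermal papilla-like cells Shh was near background, at 5.85 CPM in Con (64 UMIs) and 1.34 CPM in TP (11 UMIs).

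**Figure D3:**
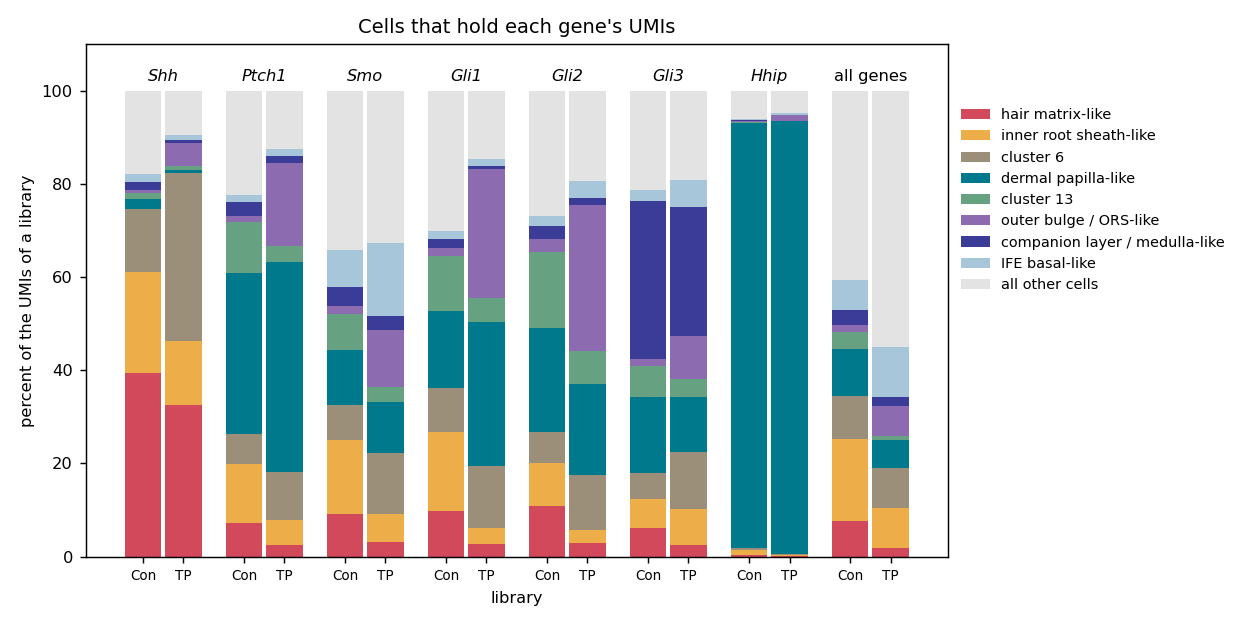
Percent of the UMIs of each gene, and of all genes, that lay in 8 classes or clusters and in all other cells, for the Con and TP library. For Shh the hair matrix-like part was 39.5% in Con and 32.5% in TP and the cluster 6 part 13.5% and 36.0%; for Hhip the dermal papilla-like part was above 90% in both.

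Ptch1, the receptor for Shh and a target of the pathway, was highest in dermal papilla-like cells. The level was 642 CPM in Con (627 to 658, 7022 UMIs) and 1356 CPM in TP (1331 to 1382, 11122 UMIs), a ratio of 2.11 (2.05 to 2.18). These cells held 34.7% of the Ptch1 UMIs of Con and 45.1% of those of TP. After thinning, 36.0% of Con and 54.0% of TP dermal papilla-like cells had a Ptch1 UMI (53.5% and 77.7% unthinned), beside 7.45% and 2.75% of immune cells and 3.42% and 2.10% of granular epidermis-like cells. Ptch1 was therefore higher in TP in the papilla by either reading, in a class where 3.85% of 12711 genes tested were 2-fold higher and 7.28% were 2-fold lower. Of the 7 members there, Ptch1 was the 1 past 2-fold higher and Shh, at background level, the 1 past 2-fold lower. With resolution 0.6 (1.92) and with every cell weighted alike (1.91) the Ptch1 ratio was short of 2-fold.

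The dermal papilla-like class was made of 2 clusters that the libraries filled unequally. Cluster 11, led by Ndnf, Tmem132c, Rspo4 and Spon1, held 2212 of the 3719 Con papilla cells, and cluster 10, led by the agouti gene a, Adgrb3, Vcan, Fgf10 and Sostdc1, held 977 of the 1248 TP papilla cells. In cluster 10, Ptch1 was at 354 CPM in Con (2004 UMIs) and 1294 CPM in TP (9084 UMIs), a ratio of 3.66 (3.49 to 3.84). In cluster 11 it was at 953 and 1725 CPM, a ratio of 1.81 (1.72 to 1.91). The direction was thus the same in both, with the larger ratio in cluster 10. The summed level of the 10 dermal papilla markers was 17130 and 12180 CPM in cluster 10 and 15386 and 18144 CPM in cluster 11, and none of the markers of the class was at 0 in either library.

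Other cell types were at other levels of Ptch1. Cluster 13 had 563 CPM in Con (539 to 587) and 632 CPM in TP (590 to 676), with a ratio of 1.12 (1.04 to 1.22). Dermal sheath cup-like cells, the contractile lower end of the follicle sheath, had 383 and 393 CPM (ratio 1.03). Hair matrix-like cells were higher in TP, at 179 and 220 CPM (ratio 1.23, 1.12 to 1.35). Cluster 6 was also higher in TP, at 131 CPM in Con (124 to 138) and 209 CPM in TP (201 to 217). The order in TP was dermal papilla-like, cluster 13, outer bulge and outer root sheath-like and dermal sheath cup-like, with intervals that did not overlap between neighbours. In Con the outer bulge and outer root sheath-like class came behind cluster 8 and overlapped with hair matrix-like cells. That class was at 172 CPM in Con (152 to 194, 274 UMIs) and 494 CPM in TP (480 to 509, 4373 UMIs), a ratio of 2.87 (2.54 to 3.25). Its part of all Ptch1 UMIs was 1.35% in Con and 17.8% in TP, and its thinned share of cells with a UMI was 12.9% and 28.5%.

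Ptch1 was lower in TP in epidermal and in other classes, several of them at or near the level of the immune clusters. In the immune clusters Ptch1 was at 91.7 CPM in Con (72.6 to 114) and 24.99 CPM in TP (18.3 to 33.3). The parts of this pool differed in Con, with cluster 26 at 106 CPM (83.0 to 134) and myeloid-like cells at 38.2 CPM (15.3 to 78.7). Melanocyte-like cells were at 109 and 46.6 CPM (ratio 0.43), dermal fibroblast-like cells at 100.5 and 48.3 CPM (0.48) and cortex-like cells at 99.3 and 61.8 CPM (0.62), each near the immune level in Con. Interfollicular epidermis (IFE) basal-like cells, at 44.8 and 24.1 CPM (0.54), and granular epidermis-like cells, at 30.2 and 19.1 CPM, lay at or below the pooled immune level in both libraries. Melanocyte-like, dermal fibroblast-like and cortex-like cells lay above granular epidermis-like cells in both libraries. The part of background RNA in these ratios was not tested. Of 24 units with a ratio, the interval lay above 1 in 6, below 1 in 12 and held 1 in 6.

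Smo, the transducer, was found at similar levels in many classes. Cluster 13 was highest, at 223 CPM in Con (208 to 238) and 212 CPM in TP (188 to 238), a ratio of 0.95 (0.83 to 1.09). It held 7.81% of the Con and 3.29% of the TP Smo UMIs. The thinned share of its cells with a UMI was 18.2% and 19.5%, beside 2.87% and 0.50% of immune cells. In each library the intervals of several classes behind it overlapped. Dermal papilla-like cells were at 120.0 and 116 CPM (ratio 0.96, 0.89 to 1.05) and outer bulge and outer root sheath-like cells at 116 and 117 CPM (1.02), so that in neither class did the level of Smo differ beyond counting error while Ptch1 did. In the immune clusters Smo was at 34.8 and 6.52 CPM. Smo was lower in TP in inner root sheath-like cells (92.1 and 43.6 CPM, 0.47), in IFE basal-like cells (123 and 91.2 CPM, 0.74) and in hair matrix-like cells (125 and 100.6 CPM, 0.81). The part of background RNA in these ratios was not tested. Of 22 units with a ratio, 1 lay above 1, 13 below 1 and 8 held 1.

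**Figure D4:**
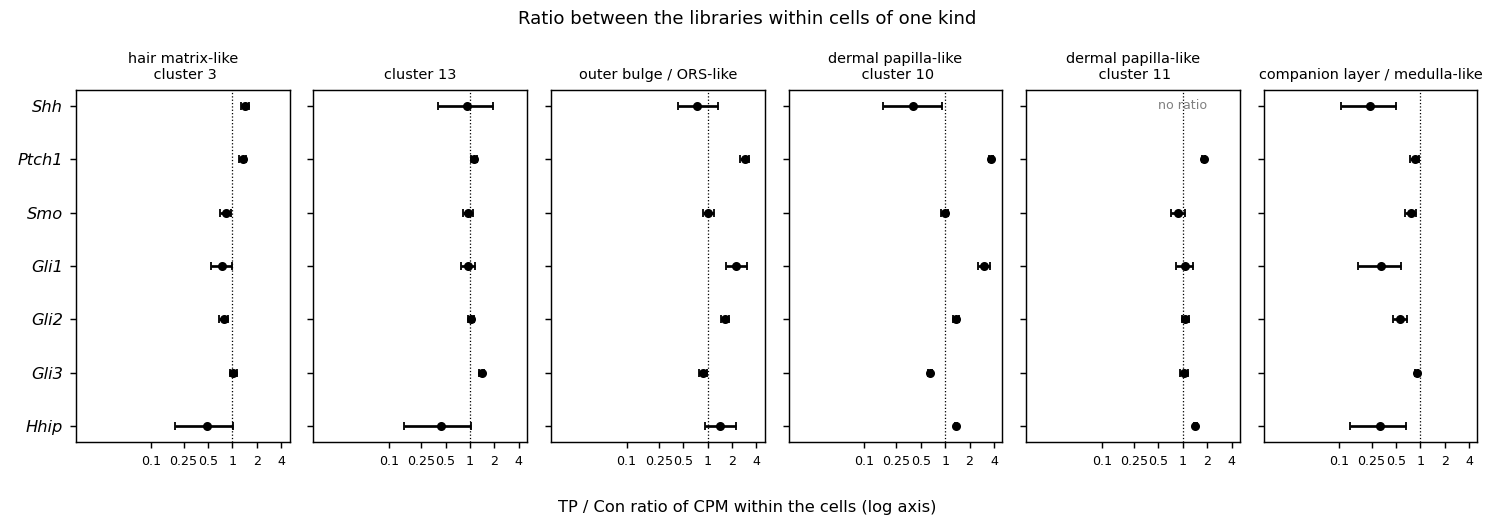
TP/Con ratio of the level of each gene within 6 kinds of cells, on a log axis, with exact 95% intervals that cover counting error only. Ptch1 and Gli1 lie above 1 in outer bulge and outer root sheath-like cells (2.87 and 2.24) and in cluster 10 of the dermal papilla-like cells (3.66 and 3.03), where Smo lies near 1 (1.02 and 0.98).

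Gli1, the transcription factor read as a sign of active signalling, was highest in cluster 13 in Con and did not differ there beyond counting error. In TP its interval in cluster 13 overlapped with that of the dermal papilla-like class, and cluster 10 of that class, at 95.3 CPM, lay within it. In cluster 13 Gli1 was at 96.9 CPM in Con (87.4 to 107) and 92.1 CPM in TP (76.5 to 110), a ratio of 0.95 (0.77 to 1.17), and the thinned share of cells was 9.13% and 10.9%. Cluster 13 held 11.8% of the Con and 5.06% of the TP Gli1 UMIs. None of the 5 members tested was past 2-fold in either direction in cluster 13, where 1.68% of the 9233 genes tested were higher and 2.07% were lower. Cluster 8, an unnamed cluster led by the cell division genes Knl1 and Kif14, came next in Con, at 69.1 CPM, but was at 31.6 CPM in TP (ratio 0.46).

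In the papilla Gli1 was higher in TP in cluster 10, and in cluster 11 the interval of its ratio held 1. For the dermal papilla-like class it was at 48.2 CPM in Con (44.2 to 52.5) and 91.7 CPM in TP (85.3 to 98.5), a ratio of 1.90 (1.70 to 2.13), and the class held 16.5% and 30.9% of all Gli1 UMIs. In cluster 10 it was at 31.4 CPM in Con (178 UMIs) and 95.3 CPM in TP (669 UMIs), a ratio of 3.03 (2.57 to 3.60), and the thinned share of cells was 2.85% and 8.50%. In cluster 11 it was at 66.3 and 70.3 CPM, a ratio of 1.06 (0.82 to 1.35). Ptch1 and Gli1 were the 2 members of 6 past 2-fold higher in cluster 10, where 4% of 11869 genes were higher, and 0 of 6 were past 2-fold lower, where 6.18% were. In cluster 11 no member of 6 was past the limit in either direction, beside 2.3% higher and 5.8% lower of 10580 genes. The difference between the 2 clusters was not tested.

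The outer bulge and outer root sheath-like cells had 33.9 CPM of Gli1 in Con (25.5 to 44.3, 54 UMIs) and 76.2 CPM in TP (70.5 to 82.1, 674 UMIs). The ratio was 2.24 (1.70 to 3.02), and this class held 1.69% of the Con and 27.7% of the TP Gli1 UMIs. The thinned share of cells was 3.22% and 7.75%, beside 1.15% and 0.00% of immune cells. Here too Ptch1 and Gli1 were the 2 members of 7 past 2-fold higher, where 2.69% of 10948 genes were, and 0 were past 2-fold lower, where 3.99% were. Hair matrix-like cells had less Gli1 in TP, at 38.6 and 25.2 CPM (0.65, 0.50 to 0.85), whereas their Ptch1 ratio was 1.23 (1.12 to 1.35). In the immune clusters Gli1 was at 15.1 CPM in Con (8.03 to 25.8) and 4.35 CPM in TP (1.88 to 8.56), a ratio of 0.29. Inner root sheath-like cells, at 27.9 and 7.14 CPM (0.26), had a ratio near that of the immune clusters, and IFE basal-like cells, at 8.09 and 2.70 CPM, lay below the immune level in both libraries. The part of background RNA in the Gli1 ratios of these classes and of hair matrix-like cells was not tested. No member of 7 was past 2-fold in hair matrix-like cells in either direction, where 1.85% of 10764 genes were higher and 2.81% were lower.

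**Figure D5:**
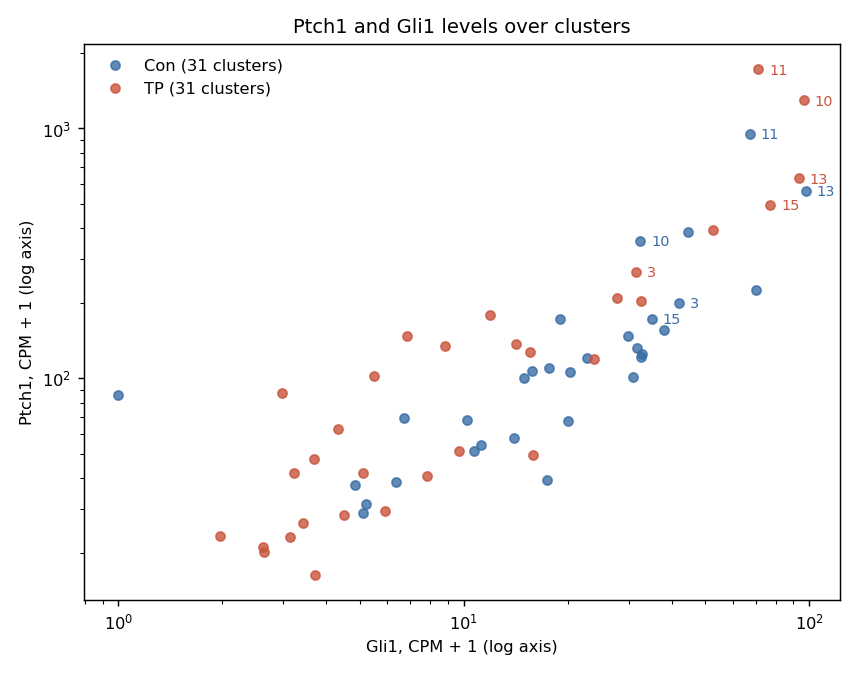
Level of Gli1 (x axis) against level of Ptch1 (y axis), both as CPM + 1 on log axes, with 1 point for each of 31 clusters with at least 50 cells in the Con and TP library, and the clusters described numbered. Cluster 10 of the dermal papilla-like class lies at 31.4 CPM of Gli1 and 354 CPM of Ptch1 in Con and at 95.3 and 1294 CPM in TP.

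RNA of other cell types also differed between the libraries within these classes. The summed level of the 9 inner root sheath markers was lower in TP in each of these classes: 2189 and 376 CPM in dermal papilla-like cells, 2754 and 557 CPM in outer bulge and outer root sheath-like cells, 3419 and 1093 CPM in cluster 13 and 3553 and 1131 CPM in hair matrix-like cells. The summed level of the 8 IFE suprabasal markers was higher in TP in the same classes. It was 2143 and 3672 CPM in dermal papilla-like cells and 3319 and 5479 CPM in outer bulge and outer root sheath-like cells. Cluster 13 had 2713 and 4768 CPM and hair matrix-like cells 2490 and 4572 CPM. Companion layer and medulla-like cells, where Gli3 was highest, had 2299 and 12481 CPM. In outer bulge and outer root sheath-like cells the 7 upper hair follicle markers summed to 1693 and 3089 CPM. The 8 markers of that class itself summed to 2471 and 2662 CPM. The part of this RNA in the member ratios was not tested.

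Gli2, a main activator of the pathway, was highest in cluster 13, at 548 CPM in Con (525 to 572) and 564 CPM in TP (525 to 606), a ratio of 1.03 (0.95 to 1.12). The thinned share of cells was 39.3% and 42.8%, and the cluster held 16.2% and 7.03% of all Gli2 UMIs. In Con the dermal sheath cup-like (299 CPM, 265 to 337) and dermal papilla-like (269 CPM, 259 to 279) classes came next, and their intervals overlapped. In TP the outer bulge and outer root sheath-like class was second. It had 234 CPM in Con and 380 CPM in TP, a ratio of 1.63 (1.46 to 1.82), and held 2.82% and 31.4% of the Gli2 UMIs. Dermal papilla-like cells had 269 and 255 CPM (0.95, 0.90 to 1.00), with a ratio of 1.37 (1.26 to 1.48) in cluster 10 and 1.08 (0.98 to 1.19) in cluster 11. Gli2 was lower in TP in hair matrix-like cells (174 and 117 CPM, 0.67) and inner root sheath-like cells (64.0 and 24.7 CPM, 0.39). The immune level was lower in TP as well, at 61.5 CPM in Con and 9.24 CPM in TP. In Con the inner root sheath-like level was near that immune level, but above the 18.5 CPM of granular epidermis-like cells. The part of background RNA in these ratios was not tested.

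Gli3, largely a repressor when ligand is absent, was concentrated in the companion layer and medulla-like class, a single cluster led by Soat1, Gpnmb, Vat1l and Kitl and named from 3 detected markers. At resolution 0.6, 99.6% of its Con and 100% of its TP cells fell into 1 cluster that got no name. The companion layer lies between the outer and inner root sheath, and the medulla is the core of the hair shaft. The level there was 2520 CPM in Con (2467 to 2573, 8822 UMIs) and 2265 CPM in TP (2207 to 2324, 5806 UMIs), a ratio of 0.90 (0.87 to 0.93). It held 33.8% of the Con and 27.8% of the TP Gli3 UMIs, although the class was 2.61% and 1.89% of cells. After thinning 81.1% and 83.5% of its cells had a Gli3 UMI (91.9% and 96.0% unthinned, at median depths of 2683 and 5278 UMIs), beside 4.87% and 1.00% of immune cells. With TMM scaling within the class the ratio was 0.98, and with every cell weighted alike 1.04, so its direction depended on the weighting.

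The next unit for Gli3, cluster 13, was far below, at 448 CPM in Con and 621 CPM in TP (ratio 1.39). Dermal papilla-like cells had 386 and 300 CPM (0.78), with 461 and 298 CPM in cluster 10 (0.65, 0.61 to 0.68) and 305 and 317 CPM in cluster 11 (1.04). In cluster 10 Gli3 was therefore lower in TP while Ptch1, Gli1 and Gli2 were higher. Cluster 4, an unnamed cluster with hair shaft genes Krt35, Dsg4 and Selenbp1, had 248 and 429 CPM (1.73), and inner root sheath-like cells had 83.9 and 140 CPM (1.67). The immune clusters were at 88.2 CPM of Gli3 in Con (69.5 to 110) and 8.69 CPM in TP. Granular epidermis-like cells were at 39.6 CPM in Con (34.1 to 45.6) and 17.1 CPM in TP. The inner root sheath-like level in Con was thus near that of the immune clusters but above that of granular epidermis-like cells. Melanocyte-like cells had 308 and 133 CPM (0.43). Of 24 units, the interval of the Gli3 ratio lay above 1 in 6, below 1 in 13 and held 1 in 5.

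Hhip, the inhibitor that binds the ligand, was almost confined to the dermal papilla. Dermal papilla-like cells held 91.3% of the Con and 92.9% of the TP Hhip UMIs. The level there was 1424 CPM in Con (1402 to 1446, 15567 UMIs) and 1759 CPM in TP (1731 to 1788, 14426 UMIs), a ratio of 1.24 (1.21 to 1.26). After thinning 65.6% and 70.3% of these cells had a UMI (79.0% and 89.3% unthinned), beside 1.15% and 0.50% of immune cells. Cluster 10 had 1219 and 1660 CPM (1.36, 1.32 to 1.40) and cluster 11 had 1644 and 2348 CPM (1.43, 1.37 to 1.49). Cluster 11, with the higher level, made up less of the TP papilla, and the ratio over the class was smaller than that of either cluster.

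Dermal sheath cup-like cells were the second Hhip site and had a lower level in TP. They had 665 CPM in Con (613 to 720, 609 UMIs) and 226 CPM in TP (203 to 249, 381 UMIs), a ratio of 0.34 (0.30 to 0.39). This class held 3.57% and 2.45% of the Hhip UMIs. At the coarser clustering resolution of 0.6 no class had this name, and its cells fell into a pair of dermal papilla-like clusters that the libraries filled unequally. The first held 91.1% of its Con and 30.2% of its TP cells, with 669 and 215 CPM of Hhip, and the other held 8.56% and 69.5%, with 603 CPM (27 UMIs) and 234 CPM. All other units were at 44.1 CPM or less in both libraries, and below the sheath cup-like class the Con intervals overlapped.

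A list of 32 further Hedgehog pathway genes, chosen with earlier results of these data known, was read beside the members, and 27 had at least 50 UMIs. Over all kept cells 2 were at least 2-fold higher and 9 at least 2-fold lower in TP, with a median ratio of 0.59 beside 0.85 for all genes. By role, 0 of 5 tested ligand and release genes were higher and 3 lower, 1 of 5 receptor genes was higher and 0 lower, 0 of 12 cilium and relay genes were higher and 5 lower, and 1 of 5 target genes was higher and 1 lower. Among all 17590 genes tested 8.13% were higher and 10.5% lower, so that a count of 0 or 1 of 5 is near the share of all genes. With TMM scaling 2 list genes, Scube1 and Scube2, were lower in place of 9. With TP clusters weighted as in Con, an alternative chosen after seeing the data, 1 gene was higher and 1 lower, beside 582 and 573 of all 17590 genes.

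Scube1, Scube2 and Scube3, which encode secreted proteins that help release Hedgehog ligand, were the lower genes of the first group. Scube2 was at 78.0 CPM in Con and 16.1 CPM in TP (0.21), Scube1 at 93.5 and 31.0 CPM (0.33) and Scube3 at 50.3 and 23.3 CPM (0.46). Scube2 was still past 2-fold with TMM scaling (0.24) and with Con weights (0.40), Scube1 with TMM (0.39) only, and Scube3 with neither (0.55 and 0.85). Gas1, a co-receptor that binds Shh, was at 15.8 and 32.9 CPM (2.08), and at 1.03 with Con weights. Among cilium and relay genes, Sufu, which restrains the GLI proteins, was at 54.3 and 27.1 CPM (0.50), and Kif7 (0.49), Gpr161 (0.48), Stk36 (0.49) and Evc2 (0.50) were just past the limit. With TMM scaling these 5 genes lay between 0.57 (Gpr161) and 0.59 (Sufu), short of it. Among targets, Mycn was at 27.4 and 11.9 CPM (0.43, or 0.51 with TMM scaling), and Foxd1, a transcription factor gene, was at 0.33 and 1.58 CPM on 36 and 219 UMIs (4.77, 3.34 to 6.99). Foxd1 was higher under every scaling used, at 5.62 with TMM and 4.96 with Con weights.

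Within dermal papilla-like cells, Foxd1 was at 2.10 CPM in Con (23 UMIs) and 16.0 CPM in TP (131 UMIs), a ratio of 7.59 (4.85 to 12.4). Ccnd1 and Ccnd2, cyclins of the cell cycle, were at 54.3 and 18.9 CPM (0.35) and at 156 and 38.3 CPM (0.25). Mycn was at 8.78 and 1.71 CPM (0.19), and Scube2 at 44.4 and 17.7 CPM (0.40). Of 26 list genes tested in the class, these were the 1 past 2-fold higher and the 4 past 2-fold lower, beside 3.85% higher and 7.28% lower of all genes tested there. The 4 lower genes were at higher levels in hair matrix-like cells in both libraries. Ccnd1 was at 198 and 270 CPM there, Ccnd2 at 898 and 937, Mycn at 50.2 and 43.0 and Scube2 at 260 and 75.3. The part of RNA from other cells in the papilla ratios was not tested. In cluster 10 the ratios were 6.73 (Foxd1), 0.36 (Ccnd1), 0.25 (Ccnd2) and 0.35 (Scube2), and Mycn had too few UMIs for a call. In cluster 11 Ccnd1 was at 0.63, short of the limit, Ccnd2 at 0.43 and Scube2 at 0.16 (167 and 6 UMIs). Mycn, with 64 and 2 UMIs there, was also past 2-fold lower, although the TP count was too small for a ratio by the limit used. Foxd1 had too few UMIs for a call.

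To find genes of like pattern, log2(CPM + 1) was correlated across 62 pairs of cluster and library with at least 50 cells, over 13345 genes. The points share 2 libraries and their depth, so that these values are a description without a test. For Shh, genes of high likeness were Pcsk2 (Pearson r 0.78), Dlx1 (0.77), Kcnip1 (0.76) and Kpna3 (0.76). For Hhip they were Lingo2 (0.97), Fgf7 (0.95) and Corin (0.95), the last 2 being known papilla genes. For Ptch1 they were Setbp1 (0.84), Tead2 (0.83) and Tgfbr1 (0.82), for Smo Fgfr2 (0.84), Lncppara (0.83) and Ctdspl (0.78), and for Gli1 Sorcs2 (0.85), Fzd2 (0.82) and Phf2 (0.81). For Gli2 they were Gpc6 (0.87), Setbp1 (0.86) and Fgd1 (0.83), and for Gli3 Dync2h1 (0.81), Boc (0.81) and Ankrd29 (0.78). Boc, a co-receptor for Shh, was the only gene of the wider Hedgehog list among them.

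Among the members, r was highest between the receptor and the GLI activators. It was 0.87 for Ptch1 with Gli2, 0.85 for Gli1 with Gli2 and 0.84 for Ptch1 with Gli1. For Gli2 with Gli3 it was 0.74, for Smo with Gli2 0.72 and for Ptch1 with Gli3 0.70. Hhip had an r of 0.64 with Ptch1 and 0.28 with Smo. Shh had an r of 0.51 with Gli1, 0.33 with Ptch1 and −0.04 with Hhip.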

How the data were processed

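Whole dorsal skin of pooled mice was dissociated and loaded on the 10x GEM-X 3′ v4 assay. The deposited values are raw UMI counts per gene and barcode, which the authors made with Cell Ranger 8.0.1 on mm10, both named in the submitters' processing notes; whether intronic reads were counted is not given in the sources used here. Samples were grouped by their treatment label, 1 library each, so no test, replicate spread or paired fit exists.

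Barcodes with 200 to 8000 genes and at most 10% mitochondrial UMIs were kept, and the 7.5% with the highest doublet score, from artificial doublets made within each library, were removed. The libraries were first aligned to each other in Seurat 5.3.0 (R 4.3.3) by anchors from reciprocal principal component analysis. The aligned values were clustered on 2000 variable features, 30 principal components and resolution 1, without the members and the Hedgehog list. Library and treatment are the same here, so the alignment bears on which Con and TP cells share a cluster. No other alignment was tried, and its part in the ratios within classes was not tested. Clusters were named from fixed marker lists, with score limits of 1.25, a margin of 0.25 and 3 markers, set after the clusters had been seen. UMIs were summed per class and library and divided by the class total (CPM). Sums carry exact Poisson, shares Clopper-Pearson and ratios exact conditional binomial 95% intervals. Ratios need more than 3 UMIs in each library, and 2-fold calls need 50 UMIs over both, with 1 UMI added per library. To compare shares, cells were thinned to 1000 UMIs. TMM factors came from edgeR 4.0.16. Exact intervals came from scipy 1.17.1 under Python 3.11.15. Only the ratio, its interval and the fold calls were tested, on simulated library sums with counting error alone.

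The members and lists were chosen with earlier results of these data known. Named were the members, the list genes past 2-fold over all cells, and the 5 genes most like Shh and 3 most like each other member in pattern; results that need withheld items are not reported here. Alternatives were other scalings, filters, weightings, thinning depths, fold and UMI limits and resolution 0.6; single clusters, TP cluster weights and the weighted list were added after seeing the data.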

Additional observations from a re-analysis of the deposited data

How the results depend on the processing

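No paired analysis was possible because each group is 1 library. Of 134 alternative values, 39 moved by less than the counting interval or, for counts of genes, by at most 1.5 times, 86 moved by more and 9 turned the direction. The 86 include every share of cells read at another thinning depth. Such a share has to rise with more UMIs per cell and fall with fewer, so these values say nothing on how firm a result is. Where no cause is named, the cause was not tested. Depth limits the shares of cells with a UMI, and the pooled mice give no spread between mice.

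Over all kept cells, TMM scaling gave ratios of 0.475 (Shh), 0.712 (Smo), 0.702 (Gli1), 0.752 (Gli2), 0.739 (Gli3) and 0.841 (Hhip) and turned Ptch1 to 1.12. With Con cluster weights Shh turned to 1.01, Ptch1 to 1.52, Gli3 to 1.10 and Hhip to 1.31, and Smo was at 0.773, Gli1 at 0.795 and Gli2 at 0.872. With TP cluster weights, chosen after seeing the data, Ptch1 turned to 1.67, Gli1 to 1.02 and Hhip to 1.21, and Shh was at 0.790, Smo at 0.764, Gli2 at 0.970 and Gli3 at 0.911. With all deposited barcodes Shh was at 0.373, Ptch1 at 0.925 and Smo at 0.584. With doublets kept the ratios were 0.375, 0.90, 0.576, 0.562, 0.596, 0.596 and 0.680 for Shh, Ptch1, Smo, Gli1, Gli2, Gli3 and Hhip. With every cell weighted alike they were 0.994 (Ptch1), 0.704 (Smo), 0.655 (Gli1), 0.796 (Gli2), 0.795 (Gli3) and 0.848 (Hhip).

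In the leading class, Ptch1 was at 1.92 with resolution 0.6, 2.24 with TMM, 1.91 with cells weighted alike, and, in single clusters chosen after seeing the data, 3.66 in cluster 10 and 1.81 in cluster 11. Hhip was at 1.10, 1.31, 1.36 and 1.43 for resolution 0.6, TMM, cluster 10 and cluster 11. Gli1 was at 0.753 and Gli2 at 1.62 with resolution 0.6, where their leading units and that of Smo changed to other clusters. Smo and Gli1 then shared an unnamed leading cluster of 5279 Con and 709 TP cells. The leading cluster of Gli3 had no name there. Gli3 was at 0.983 with TMM and turned to 1.04 with cells weighted alike.

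Thinned to 2000 UMIs, the shares of cells with a UMI in Con and TP were 17.5% and 19.5% (Shh), 48.8% and 66.4% (Ptch1), 34.3% and 30.3% (Smo), 16.9% and 17.8% (Gli1), 62.1% and 58.9% (Gli2), 91.1% and 94.95% (Gli3) and 82.6% and 86.4% (Hhip). Thinned to 500 UMIs they were 4.97% and 5.41%, 22.7% and 36.1%, 9.39% and 8.56%, 5.00% and 4.97%, 23.1% and 25.4%, 63.5% and 63.8%, and 42.9% and 49.6%.

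With resolution 0.6 the leading unit held 35.7% of Shh UMIs in Con, 36.4% and 47.8% of Ptch1 in Con and TP, 17.8% and 5.31% of Smo, 27.4% and 7.19% of Gli1, 2.89% and 31.5% of Gli2, and 94.9% and 95.4% of Hhip. With cells of at least 1000 UMIs, Gli3 was at 34.5% and Hhip at 91.8% in Con. Of the Hedgehog list, 16 genes were lower at a fold limit of 1.5 (4620 of all 17590 genes), 2 with TMM (1085) and 1 with Con weights (573), which also left 1 higher (582).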

Other observations

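Detection of Ptch1 in the same cell as Shh or Gli1 was read within classes, pairs chosen after the values were seen. In hair matrix-like cells thinned to 1000 UMIs, 24.7% of the 291 Con cells with a Shh UMI also had a Ptch1 UMI (19.9 to 30.1), beside 14.3% of those without Shh (13.1 to 15.6). For Smo the shares were 10.997% (7.64 to 15.2) and 11.7%, which overlap. In TP the shares for Ptch1 were 27.0% of 63 cells (16.6 to 39.7) and 20.05% (16.4 to 24.1), intervals that overlap. Of the 111 hair matrix-like Con cells with a Gli1 UMI, 22.5% had a Ptch1 UMI (15.1 to 31.4). The share was 15.0% in the rest (13.8 to 16.3), and these intervals overlap too. In dermal papilla-like cells, 55.2% of the 154 Con cells with a Gli1 UMI had a Ptch1 UMI (47.0 to 63.2), beside 35.0% of the rest (33.4 to 36.7), and in TP 72.3% of 94 (62.2 to 81.1) beside 52.4% (49.3 to 55.4). In TP outer bulge and outer root sheath-like cells, 45.7% of the 116 cells with Gli1 had Ptch1 (36.4 to 55.2), beside 27.1% (24.8 to 29.5). Intervals cover counting error only, and cells of 1 library are not replicates. Hair matrix-like clusters 3 and 19 had 195 and 4.96 CPM of Shh and 214 and 122 CPM of Ptch1 over both libraries. In Con, papilla clusters 11 and 10 had 66.3 and 31.4 CPM of Gli1 and 953 and 354 CPM of Ptch1. The part of this mix of clusters in the shares was not tested.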
